A study of Mus musculus with 1009 samples.

Results

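Small RNA libraries from 7 forebrain regions of old male mice injected with plasma of young mice (YMP) or with phosphate-buffered saline (PBS) were compared. The regions were taken by their names in the sample labels: olfactory bulb, motor cortex, visual cortex, anterior hippocampus, caudate putamen, corpus callosum and choroid plexus. They held 42 of the 68 libraries of the plasma experiment, which covered 11 regions, and 42 of 1009 libraries of the whole series. All 7 animals were C57BL/6JN males, 4 given PBS (mice 72, 76, 80 and 84; 25 libraries) and 3 given YMP (mice 73, 77 and 81; 17 libraries), all injected retro-orbitally. Every animal is labelled as 19 months old, while the study's methods state a slightly younger age. The plasma was pooled from young donors, so donor differences were not sampled. Not every region was available for every mouse: the groups held 4 PBS and 3 YMP libraries in olfactory bulb, 3 and 3 in visual cortex and in anterior hippocampus, 4 and 2 in motor cortex, corpus callosum and choroid plexus, and 3 and 2 in caudate putamen.

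MicroRNAs (miRNAs) are short RNAs that guide Argonaute proteins to mRNAs, mostly by pairing of the seed, bases 2 to 8, and so lower the output of their targets. Many are restricted to a cell type: miR-124-3p and miR-128-3p mark neurons, miR-219a-5p and miR-338-3p mark maturing oligodendrocytes, miR-204-5p is abundant in the choroid plexus epithelium, which makes the cerebrospinal fluid, and miR-451a is a miRNA of red blood cells. miR-155-5p and miR-146a-5p are induced by inflammatory signaling in microglia and other immune cells. Injection of young plasma is a model of the blood-borne factors that are shared in joined animals of different age, and the comparison asked whether brain miRNAs, among them those that shift with age, respond to it.

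The mature sequences on which the results turn are given from RefSeq (mouse build GRCm38.p6), 5′ to 3′, with the seed in capitals. The first set holds the brain aging miRNAs of the study and the red blood cell miRNA, which were examined in every region.
miR-155-5p: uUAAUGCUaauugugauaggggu
miR-146a-5p: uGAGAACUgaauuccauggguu
miR-5100: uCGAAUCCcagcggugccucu
miR-451a: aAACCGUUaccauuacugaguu
miR-155-5p lies at chr16:84714143-84714165 on the plus strand, in an exon of the noncoding gene Mir155hg. miR-146a-5p lies at chr11:43374435-43374456 on the minus strand, and miR-5100 lies at chr11:60728698-60728718 in an intron of Mief2.

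The second set holds miRNAs of choroid plexus and oligodendrocytes, the lists with the lowest medians under YMP.
miR-448-3p: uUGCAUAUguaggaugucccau
miR-1298-5p: uUCAUUCGgcuguccagaugua
miR-204-5p: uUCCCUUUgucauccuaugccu
miR-211-5p: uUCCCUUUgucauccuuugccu
miR-219a-5p: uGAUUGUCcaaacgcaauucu
miR-338-3p: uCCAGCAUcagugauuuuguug
miR-204-5p and miR-211-5p share their seed and lie in introns of the channel genes Trpm3 and Trpm1. miR-448-3p (chrX:147158281-147158302) and miR-1298-5p (chrX:147064918-147064939) have different seeds and lie in introns of 1 gene, Htr2c, the serotonin receptor that is abundant in choroid plexus. miR-338-3p lies in an intron of Aatk.

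The third set holds the miRNAs that moved within visual cortex, with a miRNA of the same seed and transcript as the first of them.
miR-132-3p: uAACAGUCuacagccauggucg
miR-212-3p: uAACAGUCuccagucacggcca
miR-128-1-5p: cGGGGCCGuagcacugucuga
miR-218-5p: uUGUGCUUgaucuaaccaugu
miR-132-3p (chr11:75173723-75173744) and miR-212-3p (chr11:75173443-75173464) are neighbors that are induced together by neuronal activity, and they share the seed. miR-128-1-5p lies in an intron of R3hdm1, and miR-218-5p is encoded in introns of Slit2 and Slit3.

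Depth ran from 0.503 to 31.1 mega-reads of miRNA per library (median 14.7), with 301 to 1237 detected miRNAs (median 1110.5), and 6 libraries, with fewer than 900 detected miRNAs, stood apart. These were the YMP libraries of caudate putamen mouse 81 (301 detected, and with 0.503 mega-reads the shallowest), corpus callosum mouse 73 (471) and visual cortex mouse 81 (769), and the PBS libraries of corpus callosum mice 84 (638) and 76 (789) and motor cortex mouse 84 (843). Pooled differences and medians are given with and without them, and so are the regional calls that rest on them. Without them corpus callosum and caudate putamen each keep 1 YMP library. Levels below are reads per mega-read of miRNA (rpmm), and differences are log2 values of YMP minus PBS from fits in which libraries were scaled by trimmed means (TMM). The reads carry no molecular identifiers, so depth bounds the counting error alone.

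**Figure D1:**
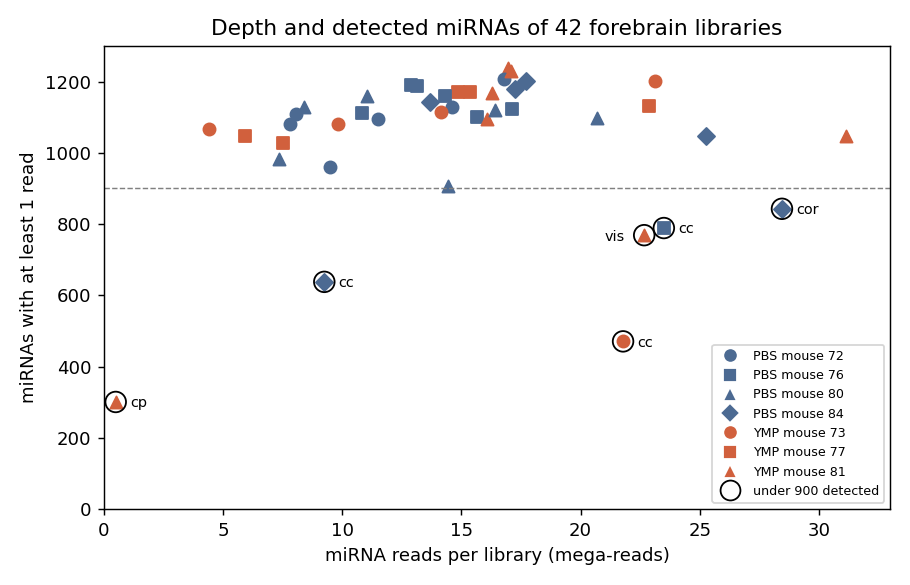
Each point is 1 of the 42 forebrain libraries, by its miRNA reads in mega-reads (x axis) and its number of miRNAs with at least 1 read (y axis), colored by treatment and shaped by mouse. The 6 circled libraries lie below the dashed line at 900 detected miRNAs, 3 of each treatment.

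The summed olfactory bulb markers, among them miR-200a-3p and miR-141-3p, stood at 105891 to 208831 rpmm in the 7 olfactory bulb libraries and at 1.61 to 437 rpmm in the other 35. The summed choroid plexus markers stood at 92051 to 197999 rpmm in the 4 PBS choroid plexus libraries and at 109890 rpmm in the library of YMP mouse 81. The library labelled choroid plexus of YMP mouse 73 reached only 23866 rpmm, and the library labelled corpus callosum of PBS mouse 80 reached 110415 rpmm, so these markers went against the label in both. The caudate putamen library of PBS mouse 76 also stood apart, at 41420 rpmm beside 2818 to 8758 rpmm in the other 4 of that region. In bulk tissue, fewer cells of a type and less RNA per cell cannot be told apart.

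Over the 7 regions together, no miRNA passed the test between YMP and PBS. In the limma voom fit with region as a term and the mouse as a block, 0 of 1342 miRNAs (0%) had an adjusted p below 0.05 with a fold change of at least 1.5, and none was called under any alternative run. The 25 PBS and 17 YMP libraries came from 4 and 3 mice, and the estimated correlation within a mouse was −0.00895, so pooled p-values and intervals rest on the spread between libraries. The mouse means given for some miRNAs take the mouse as the unit. At an unadjusted p below 0.05 there were 110 miRNAs (8.2%), 73 higher (5.44%) and 37 lower (2.76%) under YMP. The median of all differences was 0.15, and it was −0.01 without the 6 libraries of few detected miRNAs and −0.10 when libraries were scaled by their total alone, so values below are to be read against it. No miRNA was called for a difference between the 7 regions in the response (0% of 1342, 20 at an unadjusted p below 0.05), nor for a difference of the forebrain from thalamus, medulla, pons and cerebellum (0% of 1344, 40 at an unadjusted p below 0.05), both by limma voom.

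The 3 brain aging miRNAs were not called in any region. miR-155-5p, a regulator of the inflammatory state of myeloid cells, stood in choroid plexus at 80.6, 112, 75.6 and 74.9 rpmm in PBS mice 72, 76, 80 and 84 and at 48.4 and 71.5 rpmm in YMP mice 73 and 81. Both YMP libraries lay below all 4 PBS libraries there, among 3.96% of the 404 miRNAs with a mean of at least 10 rpmm that separated downward, and the difference of −0.76 was not called (edgeR adjusted p = 0.739). The lower one, of mouse 73, is the library whose markers went against its label, and without it the difference was −0.46, for YMP mouse 81 alone against PBS. In motor cortex it stood at 30.4, 32.3, 19.6 and 3.16 rpmm with PBS and at 75.3 and 21.2 rpmm with YMP. In anterior hippocampus it stood at 58.6, 31.5 and 29.2 rpmm with PBS (mice 72, 76 and 80) and at 29.1, 44.6 and 41.3 rpmm with YMP. The groups overlapped in both regions, with the highest motor cortex value in YMP mouse 77 and the lowest in the library of PBS mouse 84, 1 of those with few detected miRNAs.

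miR-155-5p was nearly lost from some of the sparse libraries. In corpus callosum it stood at 68.3, 9.36, 61.7 and 3.13 rpmm in PBS mice 72, 76, 80 and 84, and at 0.0459 and 61.3 rpmm in YMP mice 73 and 81. The 3 low values there belonged to the 3 corpus callosum libraries with few detected miRNAs. In visual cortex the YMP values were 20.5, 32.1 and 1.72 rpmm against 29.7, 15.2 and 16.9 rpmm with PBS, and the lowest was again the sparse library of mouse 81. The pooled difference was −0.34 (95% interval −0.89 to 0.21), −0.09 without the 6 libraries, −0.82 with libraries scaled by their total alone, and between 0.03 (without YMP mouse 73) and −0.66 (without YMP mouse 77) with 1 mouse left out.

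Per mouse, averaged over its regions relative to each region's mean, miR-155-5p stood at 0.78, 0.61, 0.09 and −0.23 (log2) in PBS mice 72, 76, 80 and 84 and at −1.15, 0.80 and −0.91 in YMP mice 73, 77 and 81. Over all libraries YMP mouse 77 was the highest of the 7 animals and the other 2 YMP mice were the lowest. This order rested in part on the shallowest library, caudate putamen of YMP mouse 81. Without that library YMP mouse 81 stood at −0.05, above PBS mouse 84 at −0.53. YMP mouse 77 then stood at 0.49, below PBS mouse 72 at 0.55. The difference of mouse means was −0.73 over all libraries (exact permutation test, two-sided, p = 0.343, adjusted p = 0.686 over 4 miRNAs, smallest p possible 0.0571). It was −0.36 without the shallowest library and −0.06 without the 6 libraries. It was −0.29 without YMP mouse 73, −0.49 without YMP mouse 81 and −1.36 without YMP mouse 77, where both remaining YMP mice lay below all PBS mice (exact permutation p = 0.133, the smallest possible).

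miR-146a-5p, which dampens Toll-like receptor signaling, had similar ranges in both groups. In choroid plexus it stood at 590, 770, 527 and 579 rpmm with PBS and at 578 and 500 rpmm with YMP, within or just below the PBS range. In olfactory bulb it stood at 431, 367, 339 and 547 rpmm with PBS and at 376, 704 and 223 rpmm with YMP, so the YMP libraries held both the highest and the lowest value. The pooled difference was −0.10 (95% interval −0.52 to 0.31), and it was 0.07 without the 6 libraries. The difference of mouse means was −0.14 (exact permutation test, two-sided, p = 0.743), and it was 0.06 without them.

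miR-5100 had the lowest pooled value of the brain aging miRNAs and was rare. It was covered by a median of 7 reads (0 to 32) and had none in 10 of the 42 libraries. In choroid plexus it stood at 1.61, 2.23, 1.16 and 0.985 rpmm with PBS and at 0.283 and 0.702 rpmm with YMP (difference −1.79, edgeR adjusted p = 0.515). Both YMP values lay below all PBS values, as for 4.48% of the 1296 miRNAs tested there. The lower one was again the library of mouse 73, without which the difference was −1.26, for mouse 81 alone. In anterior hippocampus it stood at 0.248, 1.63 and 0.955 rpmm with PBS and at 0.452, 0.391 and 0.471 rpmm with YMP, and the groups overlapped through PBS mouse 72. In visual cortex it was at 0 in all 3 YMP libraries and at 0, 0.555 and 0.585 rpmm with PBS, and in motor cortex it was at 0 in both YMP libraries and in 1 PBS library.

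The pooled difference of miR-5100 was −0.98 (95% interval −1.70 to −0.27, unadjusted p = 0.00806, limma adjusted p = 0.453), −1.22 without the 6 libraries, and it was lower in 7 of 7 regions. The mouse means stood at −0.03, 0.79, 0.75 and 0.17 (log2) with PBS and at −1.04, −0.54 and −0.42 with YMP. All YMP mice lay below all PBS mice, as for 7.3% of the 1342 miRNAs in that direction. The difference of −1.09 had an exact permutation p of 0.0571, two-sided, the smallest that 4 and 3 mice allow, and an adjusted p of 0.229 over 4 miRNAs. Without the 6 libraries the difference of mouse means was −0.89 (exact permutation p = 0.114).

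miR-451a served as a measure of blood in the tissue. Within PBS alone it ranged from 2.42 to 92.6 rpmm in olfactory bulb. In anterior hippocampus it stood at 3.84, 0 and 0.835 rpmm with PBS and at 15.4, 2.54 and 3.24 rpmm with YMP (difference 1.84, edgeR adjusted p = 0.962), and the groups overlapped. In choroid plexus it stood at 1.73, 0.838, 2.74 and 10.5 rpmm with PBS and at 2.05 and 1.52 rpmm with YMP. The pooled difference was 0.16 (95% interval −0.93 to 1.25), and 0.07 without the 6 libraries. The 7 red blood cell miRNAs divided into 5 higher and 2 lower, with a median of 0.12 beside 0.15 for all miRNAs (0.07 without the 6).

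**Figure D2:**
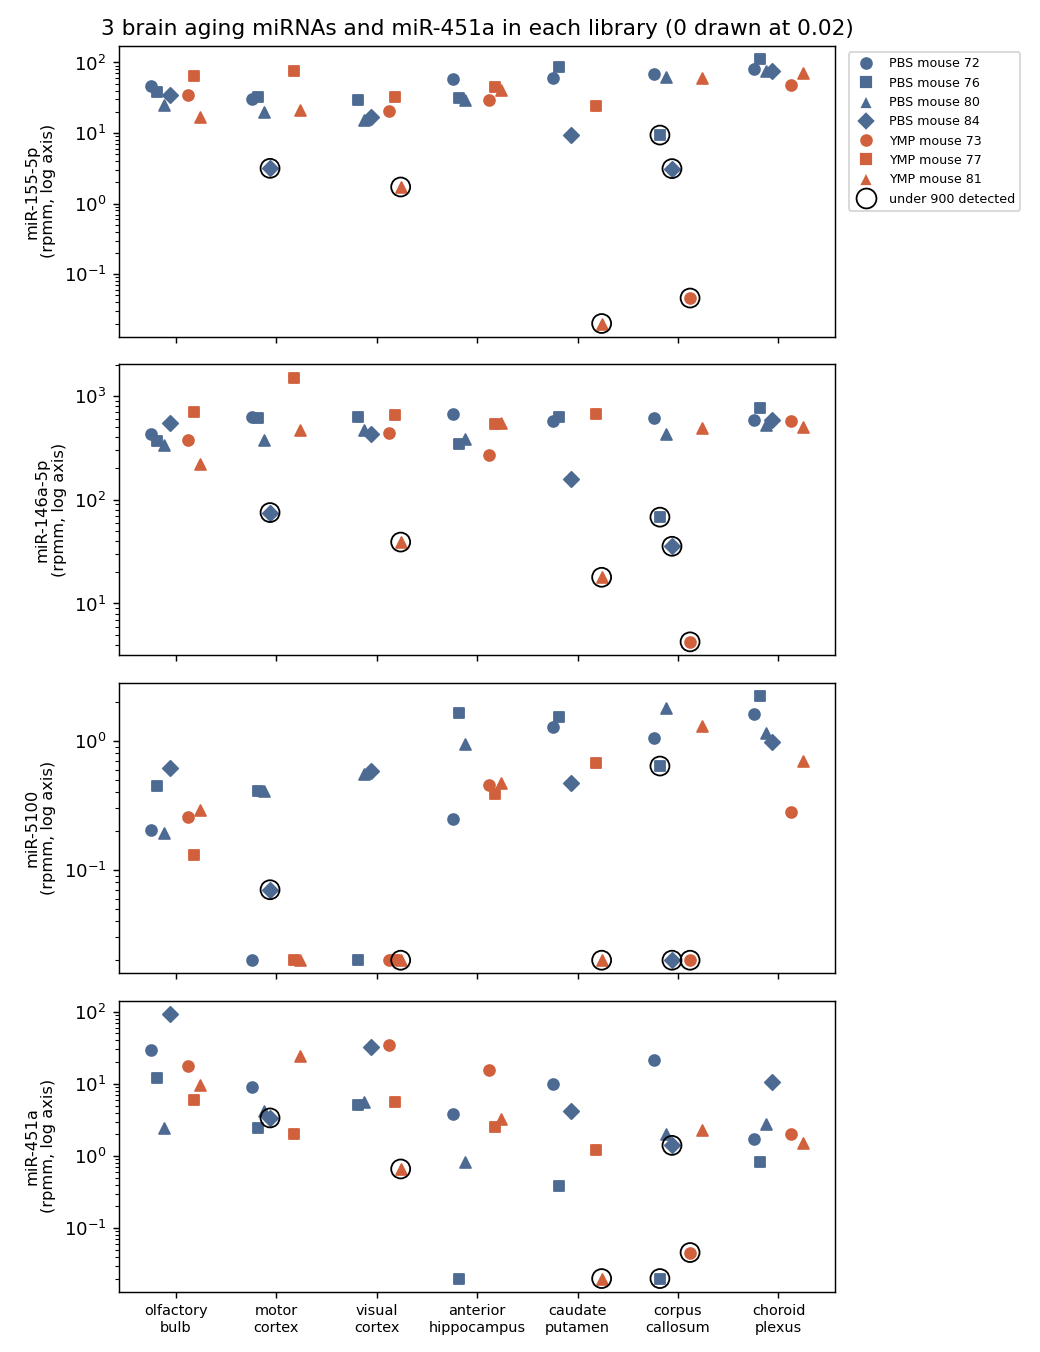
Levels of the 3 brain aging miRNAs and of miR-451a in rpmm on log axes (y) for each of the 42 libraries by region (x), PBS in blue and YMP in orange, with mice by shape, values of 0 drawn at 0.02 and the 6 libraries with under 900 detected miRNAs circled. PBS and YMP points overlap in most regions, the lowest miR-155-5p points are circled, and in choroid plexus both YMP points of miR-155-5p and miR-5100 lie below the 4 PBS points.

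The lowest pooled values belonged to miRNAs of the choroid plexus. All 8 choroid plexus markers were lower under YMP, with a median of −0.87 beside 0.15 for all 1342 miRNAs, and 5 of the 8 had an unadjusted p below 0.05 (2.76% of all miRNAs in that direction), but none passed the adjusted test. The median was −0.74 without the 6 libraries. The choroid plexus library of YMP mouse 73 and the corpus callosum library of PBS mouse 80, whose markers went against their labels, are not among the 6 and both lower the list under YMP. Without these 2 libraries the median was −0.59 beside 0.15 for all miRNAs, and 2 of the 8 had an unadjusted p below 0.05 with a lower value, beside 18 of all miRNAs. Without the caudate putamen library of PBS mouse 76 as well the median was −0.44 beside 0.17, with 2 of the 8 and 9 of all. That fit still held the corpus callosum libraries of PBS mice 72 and 76, with summed markers of 27933 and 68870 rpmm. No fit left out both the libraries picked by these markers and the 6 of few detected miRNAs.

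miR-448-3p had a pooled difference of −1.96 (95% interval −3.02 to −0.90, limma adjusted p = 0.343), −1.92 without the 6 libraries and −1.52 without the 2 whose markers went against their labels. In corpus callosum it stood at 19.6, 74.4, 72.0 and 12.5 rpmm in PBS mice 72, 76, 80 and 84 and at 0 and 0.809 rpmm in YMP mice 73 and 81. No YMP value reached a PBS value, as for 1.49% of 335 miRNAs with a mean of at least 10 rpmm in that direction in this region. The difference of −7.32 (SE 1.76) was called (edgeR adjusted p = 0.00705). It was −5.65 without the 3 sparse corpus callosum libraries, which leaves YMP mouse 81 alone against PBS mice 72 and 80, the latter the library whose markers went against its label, so no test is given. Without the library of PBS mouse 80 alone it was −7.88 (edgeR adjusted p = 0.0291). It was also the 1 miRNA called within a region by limma voom (−6.33, SE 1.41, adjusted p = 0.0409). With libraries scaled by their total alone the difference was −6.77 (adjusted p = 0.9999).

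In choroid plexus itself miR-448-3p stood at 63.5, 50.3, 81.6 and 71.6 rpmm with PBS, at 84.8 rpmm in YMP mouse 81 and at 3.32 rpmm in YMP mouse 73. The YMP libraries thus held both the highest and the lowest value, and the low one was the library that went against its label. In caudate putamen PBS mouse 76 had 40.3 rpmm, and the other 4 libraries had 0 to 1.88 rpmm.

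miR-1298-5p, also within Htr2c, was lower in 7 of 7 regions, with a pooled difference of −1.55 (95% interval −2.45 to −0.66, limma adjusted p = 0.343), −1.62 without the 6 libraries and −1.01 without the 2 whose markers went against their labels. In corpus callosum it stood at 446, 206, 3225 and 35.9 rpmm with PBS and at 2.02 and 20.0 rpmm with YMP. The groups did not overlap, yet the PBS libraries alone spanned 35.9 to 3225 rpmm (difference −4.57, edgeR adjusted p = 0.064). It was −6.33 for YMP mouse 81 against PBS mice 72 and 80. Of these, the library of mouse 80, at 3225 rpmm, is the one whose markers went against its label. In choroid plexus it stood at 1878, 1746, 2068 and 1991 rpmm with PBS, at 3034 rpmm in YMP mouse 81 and at 92.6 rpmm in YMP mouse 73. The 2 YMP libraries again lay on either side of PBS.

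miR-204-5p, the most abundant of the 8 markers in choroid plexus, stood there at 118726, 188781, 102858 and 86071 rpmm with PBS and at 22659 and 102704 rpmm with YMP. Its seed partner miR-211-5p stood there at 2090, 6417, 2567 and 2157 rpmm with PBS and at 905 and 1922 rpmm with YMP. For miR-211-5p both YMP libraries lay below all PBS libraries, as for 3.96% of the 404 miRNAs there, and for miR-204-5p they did not. The difference of miR-211-5p was −1.43 (edgeR adjusted p = 0.145), and 1 of the 2 YMP libraries is that of mouse 73, whose markers went against its label. Without it the difference was −0.95, for YMP mouse 81 alone against PBS. In corpus callosum miR-204-5p stood at 25821, 66215, 101177 and 18016 rpmm with PBS and at 855 and 5549 rpmm with YMP.

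The summed markers showed how much the corpus callosum libraries differed in choroid plexus miRNAs. The sum stood at 27933, 68870, 110415 and 18440 rpmm in PBS mice 72, 76, 80 and 84 and at 896 and 6965 rpmm in YMP mice 73 and 81. The library of PBS mouse 80 lay within the range of the PBS choroid plexus libraries (92051 to 197999 rpmm). Those of PBS mice 72 and 76 lay below that range but above the choroid plexus library of YMP mouse 73 (23866 rpmm). All PBS libraries of corpus callosum lay above both YMP libraries. In anterior hippocampus the order was mixed, with 6318, 14017 and 9445 rpmm under PBS and 19754, 20336 and 2910 rpmm under YMP. These sums moved with treatment in corpus callosum together with the single miRNAs above, and the part of neighboring choroid plexus tissue in those results was not tested.

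miRNAs of oligodendrocytes were the other group below the rest. In the pooled fit all 4 were lower under YMP, with a median of −0.62 (−0.48 without the 6 libraries, −0.49 without the 2 whose markers went against their labels and −0.40 without these and caudate putamen of PBS mouse 76) beside 0.15 for all miRNAs. By region, all 4 were lower in olfactory bulb, caudate putamen and choroid plexus, and 3 of 4 in visual cortex and anterior hippocampus. In visual cortex the median was −0.31, and 0.02 without the sparse library. In caudate putamen it was −1.85, and −1.16 without the sparse library of mouse 81, which leaves 1 YMP library. The 4 miRNAs summed to 87.4 rpmm in that sparse library. They summed to 3213 rpmm in YMP mouse 77, within the PBS range of 1839 to 8708 rpmm. Motor cortex divided into 2 and 2. In corpus callosum 3 were higher and 1 lower (median 0.13, and −0.20 without the sparse libraries, which leaves 1 YMP library). An unadjusted p below 0.05 was found for 3 of the 4 (2.76% of all miRNAs in that direction), and none was called. It was found for 2 of the 4 without the 2 libraries whose markers went against their labels, beside 18 of all miRNAs. Without caudate putamen of PBS mouse 76 as well it was found for 1, beside 9 of all. miR-219a-5p, which promotes oligodendrocyte maturation, had a pooled difference of −0.85 (95% interval −1.42 to −0.29, limma adjusted p = 0.453), and −0.89 without the 6 libraries. It was −0.70 without the 2 whose markers went against their labels and −0.54 without these and caudate putamen of PBS mouse 76. In choroid plexus it stood at 22.5, 20.4, 29.8 and 22.4 rpmm with PBS and at 5.94 and 24.7 rpmm with YMP, so the library of mouse 73 alone was low. In visual cortex it stood at 7.58, 9.29 and 4.97 rpmm with PBS and at 5.49, 2.66 and 0.353 rpmm with YMP, and the groups overlapped through YMP mouse 73.

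miR-338-3p, another oligodendrocyte miRNA, was lower in 7 of 7 regions with a pooled difference of −0.70 (95% interval −1.18 to −0.21, limma adjusted p = 0.453), and −0.54 without the 6 libraries. Without the 2 libraries whose markers went against their labels the pooled difference was −0.57. In anterior hippocampus it stood at 2792, 1620 and 1043 rpmm with PBS and at 1408, 277 and 1316 rpmm with YMP. The groups overlapped there, and PBS mouse 72 was highest and YMP mouse 77 lowest (difference −1.14, edgeR adjusted p = 0.997). Averaged per mouse, it stood at 0.57, 0.23, 0.37 and 0.05 (log2) with PBS and at −0.45, −0.51 and −0.39 with YMP, without overlap. Among the 398 miRNAs with a mean of at least 10 rpmm, 10.6% separated in this direction by mouse.

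**Figure D3:**
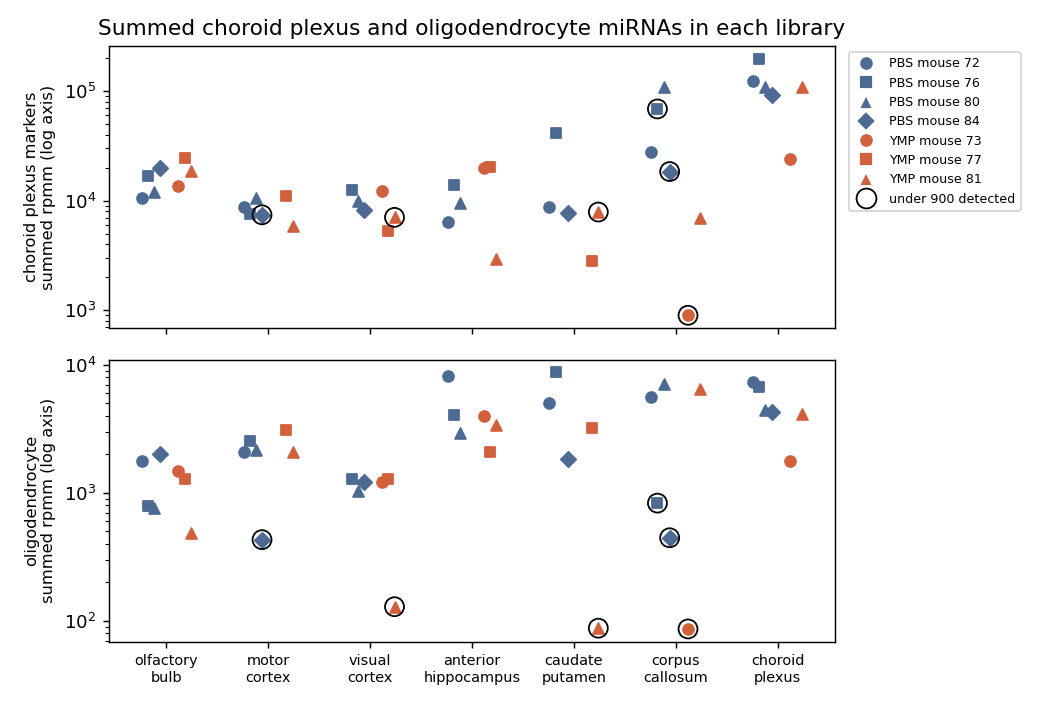
Summed levels of the 8 choroid plexus markers (top) and 4 oligodendrocyte miRNAs (bottom) in rpmm on log axes for each library by region, PBS in blue and YMP in orange, mice by shape, libraries with under 900 detected miRNAs circled. In corpus callosum both YMP points of the choroid plexus sum (896 and 6965 rpmm) lie below the 4 PBS points, and in choroid plexus the point of YMP mouse 73 lies at 23866 rpmm below all others.

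Among further miRNAs of the pooled comparison, miR-15a-5p, a repressor of cell cycle genes, was lower in 7 of 7 regions, with a pooled difference of −0.58 (95% interval −0.99 to −0.17, limma adjusted p = 0.453), and −0.46 without the 6 libraries. In olfactory bulb it stood at 1379, 1169, 1135 and 1856 rpmm with PBS and at 1216, 755 and 714 rpmm with YMP, overlapping through mouse 73. miR-101a-3p was also lower in 7 of 7 regions (−0.69, and −0.40 without the 6). In all, 15 of 396 miRNAs with a mean of at least 10 rpmm were lower in every region and 2 were higher in every region.

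The highest pooled difference of all miRNAs was that of miR-212-5p, the passenger arm of the activity-induced miR-212, at 1.80 (95% interval 0.88 to 2.72, limma adjusted p = 0.343), and 1.65 without the 6 libraries. Its mean was 0.238 rpmm, with a median of 1 read per library (0 to 38) and none in 16 of the 42 libraries. Per mouse it stood at −0.53, −0.08, −0.87 and 0.08 (log2) with PBS and at 0.26, 1.07 and 0.26 with YMP, without overlap, as for 1.34% of 1342 miRNAs in that direction.

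Of the more abundant miRNAs with positive values, miR-370-3p, from the imprinted noncoding gene Rian in the Dlk1-Dio3 locus, had a pooled difference of 0.63 (95% interval 0.20 to 1.07, limma adjusted p = 0.453), 0.50 without the 6 libraries, and was higher in 6 of 7 regions. In anterior hippocampus it stood at 35.5, 48.3 and 40.3 rpmm with PBS and at 129, 57.7 and 71.5 rpmm with YMP. In choroid plexus it stood at 63.6, 75.7, 47.4 and 40.7 rpmm with PBS and at 149 and 75.0 rpmm with YMP. The hippocampal groups did not overlap, as for 5.35% of 411 miRNAs there in that direction, and the choroid plexus groups overlapped. Per mouse it stood at −0.27, −0.26, −0.18 and −0.41 (log2) with PBS and at 0.50, 0.32 and 0.42 with YMP, among 2.01% of 398 miRNAs that separated upward. Of 18 other miRNAs of the locus, 9 were higher and 9 lower, with a median of 0.01 (0.11 without the 6).

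Within regions, 26 miRNAs were called in all (0.293% of 8865 tests by edgeR), 13 in visual cortex (1.04%), 11 in corpus callosum (0.884%) and 2 in choroid plexus (0.154%). Without the 2 libraries whose markers went against their labels 15 were called, 13 in visual cortex and 2 in corpus callosum. Without the 6 sparse libraries 13 were called in all, 6 of them in visual cortex, 4 in corpus callosum, 2 in choroid plexus and 1 in motor cortex. Those 4 compare 1 YMP library with 2 of PBS, which alone supply the spread. In olfactory bulb, motor cortex, anterior hippocampus and caudate putamen 0 were called (0% each), with 19 (1.47%), 61 (4.89%), 42 (3.25%) and 63 (5.05%) at an unadjusted p below 0.05. In motor cortex, visual cortex and corpus callosum edgeR shrank the spread of every miRNA fully to the common trend, so a miRNA whose own libraries varied more could still be called. With limma voom, 1 call was left in corpus callosum and 0 in the other regions, and the same counts were left with the mouse as a block in 1 fit over all regions. Leaving out 1 mouse at a time moved the edgeR count from 0 to 31 in visual cortex, from 0 to 42 in corpus callosum and from 0 to 27 in choroid plexus. The names below are those of the edgeR test.

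In visual cortex 12 miRNAs were called higher (0.962%) and 1 lower (0.0802%) under YMP, led by miR-132-3p, a regulator of dendrite growth and plasticity. miR-132-3p stood at 21.6, 50.5 and 50.9 rpmm in PBS mice 76, 80 and 84 and at 36.4, 2436 and 673 rpmm in YMP mice 73, 77 and 81. YMP mouse 73 lay within the PBS range and the other 2 YMP libraries far above it. The difference was 5.75 (SE 0.72, edgeR adjusted p = 2.28e-12), and 4.90 without the sparse library of mouse 81. The spread of its own libraries was 7.45 times that used by the test (quasi-dispersion 6.54 against 0.879), and by limma voom the difference was 4.25 (SE 1.22, adjusted p = 0.870). With the mouse as a block in 1 fit over regions its adjusted p was 0.935. Most reads behind both high values were not of the canonical sequence, as shown further on, and whether they came from miR-132-3p of the tissue was not tested.

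The same miRNA varied as widely in other regions, within both treatments. In anterior hippocampus it stood at 2.48, 879 and 1448 rpmm with PBS and at 36.6, 7.43 and 1915 rpmm with YMP. In motor cortex it stood at 34.2, 4584, 10620 and 1147 rpmm with PBS and at 199 and 10794 rpmm with YMP. Within PBS it differed by up to 584-fold between mice of 1 region. Its SD within groups was 3.16 on the log2 scale, the largest of 398 miRNAs with a mean of at least 10 rpmm, whose median was 1.28 (3.29 and 0.65 without the 6 libraries).

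Its partners on the same transcript varied less. miR-132-5p, the other arm of the same hairpin, stood in visual cortex at 204, 129 and 129 rpmm with PBS and at 142, 257 and 30.0 rpmm with YMP, and the lowest value was that of the sparse library. Its within-group SD was 1.32, and 0.68 without the 6 libraries. miR-212-3p, which shares the seed, had a pooled difference of 0.22 (95% interval −0.41 to 0.85), 0.04 without the 6 libraries, and a within-group SD of 0.63, and 0.67 without them.

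The length forms of miR-132-3p also differed between the libraries of high level. Of the forms that led in a library, 3 are shown, namely the canonical sequence, a form 2 bases shorter at the 3′ end, and a form 3 bases shorter with a changed base (T-to-A in the DNA alphabet, in capitals beside the seed).
canonical: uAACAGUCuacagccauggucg
2 bases shorter: uAACAGUCuacagccauggu
3 bases shorter and changed: uAACAGUCuacagccaAgg
In visual cortex of YMP mouse 77, the changed form held 74.0% of 18371 miR-132-3p reads (95% Wilson interval 73.4 to 74.7) and the canonical form 3.47% (3.22 to 3.75). Such intervals treat the reads of 1 library as independent and do not cover the spread between mice. In YMP mouse 81 the form 2 bases shorter held 78.0% of 15294 reads (77.3 to 78.6) and the canonical form 0.994% (0.848 to 1.16). The 2 high YMP libraries thus rested on different forms. Another form, 1 base longer with a C-to-T change, was the largest in corpus callosum of PBS mouse 76, with 27.2% of 156535 reads (27.0 to 27.4), and in caudate putamen of YMP mouse 81, with 61.5% of 1502 reads (59.0 to 63.9).

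In canonical reads alone the visual cortex values were 1.11, 0.832 and 2.27 rpmm with PBS and 1.42, 84.9 and 6.71 rpmm with YMP. In anterior hippocampus, by contrast, the canonical form led in the 3 libraries of high level, with 36.4% (35.6 to 37.3) in PBS mouse 76, 40.7% (39.8 to 41.6) in PBS mouse 80 and 45.0% (44.4 to 45.5) in YMP mouse 81. Over all 42 libraries, canonical miR-132-3p stood at 213 to 4401 rpmm in 13 libraries, 9 of PBS and 4 of YMP, and at 0 to 84.9 rpmm in the other 29. The high libraries came from corpus callosum, motor cortex, caudate putamen and anterior hippocampus of mice 76, 80, 84 and 81, and from neither treatment alone.

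**Figure D4:**
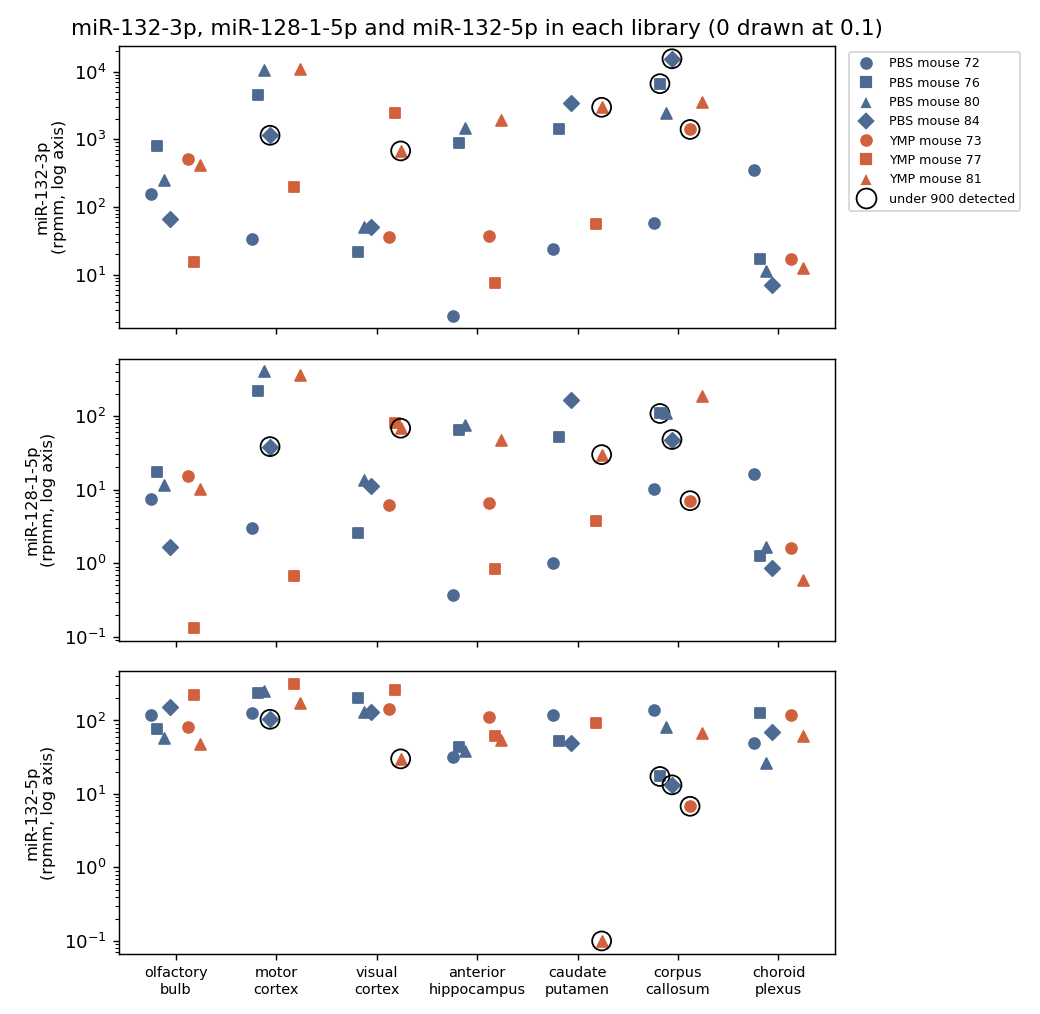
Levels of miR-132-3p, miR-128-1-5p and miR-132-5p in rpmm on log axes (y) for each library by region (x), PBS in blue and YMP in orange, mice by shape, values of 0 drawn at 0.1 and libraries with under 900 detected miRNAs circled. miR-132-3p spans 2.48 to 1915 rpmm in anterior hippocampus with PBS and YMP points at both ends, whereas miR-132-5p spans 31.5 to 110 rpmm there.

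miR-128-1-5p was called with it in visual cortex, at 2.59, 13.5 and 11.0 rpmm with PBS and 6.20, 78.9 and 68.0 rpmm with YMP (difference 4.18, edgeR adjusted p = 3.79e-08, and 2.20, adjusted p = 0.00712, without the sparse library). miR-218-5p, a motor neuron miRNA that is also widely expressed in brain, stood at 611, 1234 and 1245 rpmm with PBS and at 980, 4286 and 3613 rpmm with YMP (difference 3.15, adjusted p = 0.00194, and 1.35, adjusted p = 0.0369, without it). In both, mouse 73 lay within PBS and mice 77 and 81 above. By limma voom the differences were 2.88 (SE 1.14) and 2.27 (SE 0.84), both with an adjusted p of 0.870. The spread of their own libraries was 8.59 and 3.89 times that used by edgeR. The trimmed-mean scaling factor of the sparse library of mouse 81 was 0.218 in this region, against 1.28 to 1.47 in the others. miR-128-1-5p also had the second largest within-group SD of the 398 miRNAs, 2.41. It spanned 0.372 to 76.2 rpmm among the PBS libraries of anterior hippocampus.

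The 1 miRNA called lower in visual cortex was miR-182-5p, a member of the sensory miR-183 cluster that is abundant in olfactory bulb. It stood at 10.4, 4.99 and 27.9 rpmm with PBS and at 5.39, 0.532 and 0.353 rpmm with YMP (difference −2.42, edgeR adjusted p = 0.0429, and −2.24, adjusted p = 0.0391, without the sparse library). YMP mouse 73 lay within PBS here too. In this region 7 of the 8 olfactory bulb markers, miR-182-5p among them, were lower. Their median was −1.83 (−1.69 without the sparse library), beside −0.07 for all miRNAs there. The summed markers stood at 142 to 437 rpmm with PBS and at 67.3 to 193 rpmm with YMP, with overlap.

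In corpus callosum 10 miRNAs were called higher (0.803%) and 1, miR-448-3p, lower (0.0803%). miR-135a-1-3p stood at 6.70, 9.11, 7.62 and 6.81 rpmm with PBS and at 24.7 and 11.5 rpmm with YMP (difference 4.44, edgeR adjusted p = 0.00705, and 0.76 without the 3 sparse libraries, for YMP mouse 81 against PBS mice 72 and 80). let-7k stood at 7.74, 14.6, 5.98 and 9.51 rpmm with PBS and at 23.8 and 14.0 rpmm with YMP (difference 3.89, adjusted p = 0.029, and 1.07 without them). Both were highest in the sparse library of YMP mouse 73, and without mouse 73 the differences were −0.73 and −0.95, by edgeR. The other 8 higher ones were rare, with means of 0.217 to 7.65 rpmm, and without mouse 73 no miRNA was called in this region. The trimmed-mean scaling factor of that library was 0.084, against 0.648 to 3.35 in the other 5, so its scaled levels lie far above the rpmm values. With libraries scaled by their total alone the differences were 1.26 for miR-135a-1-3p and 1.00 for let-7k (edgeR adjusted p = 0.9999 for both), and no miRNA was called. Without the library of PBS mouse 80 they were 3.61 and 3.00, and neither was called.

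In choroid plexus miR-132-3p and miR-7662-3p were called lower. miR-132-3p stood at 352, 17.3, 11.4 and 7.01 rpmm with PBS and at 17.2 and 12.7 rpmm with YMP (difference −2.95, SE 0.70, edgeR adjusted p = 0.0407). The call rested on PBS mouse 72, without which the difference was 0.15, and without the library of YMP mouse 73, which leaves 1 YMP library, no miRNA was called in this region. In the library of PBS mouse 72 the changed form held 43.3% of 5919 reads (42.0 to 44.5) and the canonical form 5.36% (4.81 to 5.96). miR-7662-3p stood at 6.26, 0.768, 0.487 and 0.522 rpmm with PBS and at 0.0707 and 0.234 rpmm with YMP (difference −3.84, adjusted p = 0.0407), again with mouse 72 far above the rest.

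Where no miRNA was called, those with the smallest p among the higher ones are given as values. Among the lower ones these were miR-770-5p in olfactory bulb, miR-1895 in motor cortex, miR-135a-5p in anterior hippocampus and miR-34c-5p in caudate putamen. At an unadjusted edgeR p below 0.05, 6 were higher and 13 lower in olfactory bulb and 23 and 38 in motor cortex. There were 20 and 22 in anterior hippocampus and 36 and 27 in caudate putamen. In anterior hippocampus miR-125a-5p stood at 90.8, 140 and 108 rpmm with PBS and at 900, 275 and 155 rpmm with YMP (difference 1.62, edgeR adjusted p = 0.425), and all YMP libraries lay above PBS, as for 5.35% of 411 miRNAs there. In olfactory bulb let-7j stood at 778, 828, 642 and 730 rpmm with PBS and at 1516, 1396 and 894 rpmm with YMP (difference 0.93, adjusted p = 0.999), also without overlap, as for 2.03% of 345 miRNAs there. In motor cortex miR-344d-3p stood at 11.6, 20.8, 7.48 and 0.246 rpmm with PBS (the lowest in the sparse library of mouse 84) and at 67.6 and 16.5 rpmm with YMP (difference 1.91, adjusted p = 0.777). In caudate putamen the sparse library of YMP mouse 81 held 133 rpmm of miR-141-3p, an olfactory bulb marker, against 0 to 0.380 rpmm in the other 4 libraries.

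Most of the remaining lists lay near the median of all miRNAs or moved with the sparse libraries. All 9 let-7 miRNAs, regulators of differentiation that share a seed, were higher in the pooled fit with a median of 0.29, but 0.02 without the 6 libraries. By region the let-7 counts went both ways, with 9 of 9 higher in visual cortex, corpus callosum and olfactory bulb and 9 of 9 lower in motor cortex. All 9 miRNAs of the miR-17-92 cluster and its paralogs (median −0.23, −0.15 without the 6), all 3 miR-29 miRNAs (−0.26, −0.18) and all 5 of endothelium and mural cells (−0.38, −0.11) were lower, and none was called. The median of all miRNAs was 0.15, and −0.01 without the 6, so these lists stayed below it in both.

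Neuronal miRNAs divided into 4 higher and 4 lower with a median of 0.01 (−0.08 without the 6). The activity-induced list, which holds the miR-132 and miR-212 pairs, had 4 higher and 1 lower (median 0.22, and 0.04 without the 6 libraries). Of 72 measured miRNAs of the Sfmbt2 locus, a large mouse cluster, 49 were higher and 23 lower (median 0.21, and 0.03 without the 6), beside 871 higher and 471 lower of all 1342. Leukocyte and microglia miRNAs divided into 4 and 4 (median −0.02, and 0.07 without the 6), liver and plasma miRNAs into 1 higher and 2 lower (−0.14, and 0.07), and olfactory bulb markers into 5 and 3 (0.08, and −0.14).

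**Figure D5:**
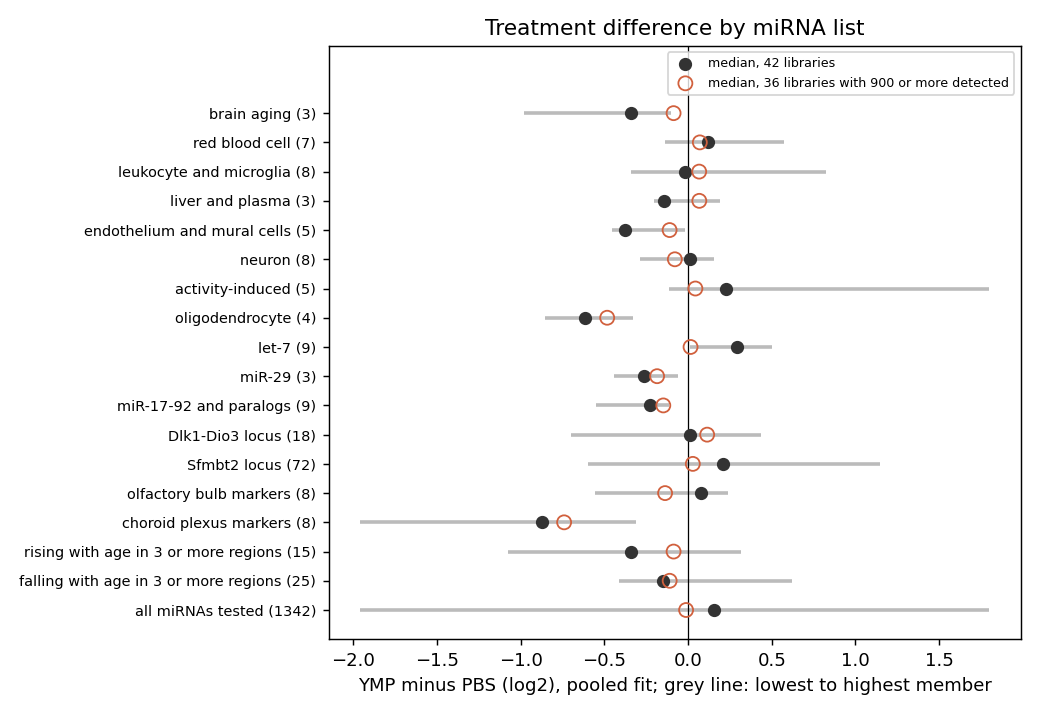
Pooled differences of YMP minus PBS (log2, x axis) for each miRNA list (y axis, number measured in parentheses), with filled points for the median over all 42 libraries, open points for the median without the 6 libraries of few detected miRNAs, and grey lines from the lowest to the highest member. Choroid plexus markers (−0.87) and oligodendrocyte miRNAs (−0.62) have the lowest medians, beside 0.15 for all miRNAs.

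The miRNAs that shift with age were taken from the aging mice of the same series, as those with an age slope in at least 3 of these 7 regions. These mice were also C57BL/6JN, of both sexes, and ran from young adults to the oldest, which were males alone. Each region held 55 to 59 of their libraries, and a slope needed an edgeR adjusted p below 0.05. Of 15 that rose with age, 3 were higher and 12 lower under YMP (median −0.34), beside 871 higher and 471 lower of all 1342 (median 0.15). An unadjusted p below 0.05 with a lower value was found for 5 of them (2.76% of all miRNAs in that direction), and none was called. These were miR-34b-5p (−1.08, and −0.86 without the 6 libraries), miR-193a-3p (−0.61, and −0.39), miR-210-3p (−0.53, and −0.34), miR-5100 and miR-219a-5p. Of these, miR-219a-5p is also on the oligodendrocyte list and miR-34b-5p on the choroid plexus list. The median was −0.09 without the 6 sparse libraries, −0.24 without the 2 whose markers went against their labels (2 of the 15 then lower at an unadjusted p below 0.05) and −0.81 by total scaling, and of these 15 only the 3 brain aging miRNAs, which the study picked in its aging mice, also rose in at least 3 regions of males alone. Of 25 that fell with age, 9 were higher and 16 lower (median −0.15, and −0.11 without the 6).

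In visual cortex, 110 miRNAs that fell with age had a median difference of 1.02, with 92 higher and 18 lower, while 587 of all 1247 miRNAs there were higher (median −0.07). Of the 110, 7 were called, beside 13 of all 1247 miRNAs there (1.04%). Without the sparse library of mouse 81 the median was −0.06, and by total scaling it was −0.18, beside −0.52 for all miRNAs. The 94 rising ones there divided into 22 higher and 72 lower (median −0.24, and 0.09 without that library). In olfactory bulb, where no library was sparse, 20 rising miRNAs divided into 4 higher and 16 lower (median −0.33) and 34 falling ones into 21 and 13 (0.16), beside −0.01 for all, and none was called. In motor cortex, anterior hippocampus, caudate putamen and corpus callosum the lists held 5 to 47 miRNAs, with medians from −0.93 (5 rising ones in hippocampus) to 0.15 (47 falling ones in corpus callosum) and none called. In choroid plexus, which had the most miRNAs with an age slope, 138 rising ones had a median of −0.21 and 131 falling ones of −0.16, beside −0.14 for all. None of the rising ones was called and 2 of the falling ones were, beside 2 of all 1296 miRNAs there (0.154%).

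The forms of miR-155-5p had similar shares in both treatments. In the 40 libraries with at least 20 reads, the canonical form held 30.0% ± 6.48 (SD) of its reads with PBS and 32.7% ± 8.64 with YMP. The difference of mouse means was 2.30 percentage points (exact permutation test, two-sided, p = 0.457, smallest p possible 0.0571). The next forms kept the seed and differed at the 3′ end, and are shown because they carry most of the other reads.
1 base longer: uUAAUGCUaauugugauagggguu
2 bases shorter: uUAAUGCUaauugugauaggg
1 base shorter: uUAAUGCUaauugugauagggg
The first held 16.5% with PBS and 15.0% with YMP, the second 10.0% and 9.84%, and the third 9.51% and 9.16%. Of 89 listed miRNAs tested in this way, 50 had a higher canonical share under YMP and 39 a lower one, and 5 reached the smallest p that 4 and 3 mice allow, 0.0571 (exact permutation tests, smallest adjusted p = 0.848). No share could therefore reach 0.05.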

How the data were processed

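Total RNA from dissected brain tissue was sequenced as single-end small RNA libraries. Per the study's methods, the authors ran miRMaster, which aligns reads with Bowtie and counts them on miRBase miRNAs, and the submitters' processing notes name the genome build mm10. The deposited tables hold estimated counts of mature miRNAs and of their isomiR forms, since 0.84% of the forebrain miRNA values were not whole, and they were rounded. A filter modeled on that of the study (5 reads or more, in 10% or more of a region's libraries) kept 1344 of 1966 miRNAs, and 1342 of these entered the pooled fit. The study states its filter per group and reports more miRNAs kept. Levels in rpmm are counts divided by the miRNA total of the library.

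YMP and PBS were compared over regions with limma 3.58.1 (voom, region as a term, duplicateCorrelation with the mouse as a block) and within regions with edgeR 4.0.16 (quasi-likelihood tests, TMM) in R 4.3.3. Tests were two-sided with Benjamini-Hochberg adjustment over all miRNAs, and a call needed an adjusted p below 0.05 and a fold change of at least 1.5. Mouse means are log2 counts-per-million (prior count 2) minus the region's mean, tested by exact permutation in SciPy 1.17.1. Libraries with the same mouse number come from 1 animal, which pairs them: deviations from group means correlated at 0.0982 on average between regions of a mouse and at −0.0354 between mice of a treatment. Libraries of 1 group within a region come from separate mice. In the pooled fit each mouse gives several libraries, so its p-values rest on the spread between libraries and only the tests on mouse means on that between animals.

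Age slopes came from the aging mice of the series by edgeR with sex as a term. Named miRNAs were all members of the brain aging and red blood cell lists, in the pooled fit the 5 of smallest p per direction with a mean of at least 10 CPM, in each region the 3 largest called per direction or else the 1 of smallest p, the 3 most abundant of each list, and up to 3 per direction with 1 sign in all regions. The members, lists and tests were chosen with earlier results of these data known. miR-212-5p, miR-132-5p, miR-182-5p, miR-7662-3p, miR-34b-5p, miR-193a-3p, miR-210-3p, the 6 sparse libraries and the forms of miR-132-3p were singled out after their values were seen. RefSeq sequences matched 79 of 97 named miRNAs. Alternatives were other scalings (relative log expression, total count), other filters, DESeq2 1.42.0, the test of the study on rpmm, a replicate block, and leaving out libraries or mice. Leaving out libraries with fewer than 900 detected miRNAs or those whose markers went against their labels or stood apart, the robust edgeR shrinkage and voom within regions were added after seeing the data. The scripts were tested on simulated data.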

Additional observations from a re-analysis of the deposited data

Results flagged for a closer look

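In 1 of 36 groups of 4 or more libraries that were checked, a library stood far from the others of its group. miR-1895 in motor cortex stood at 504 rpmm in PBS mouse 72 and at 20.3, 29.9 and 23.4 rpmm in the other PBS mice. On the log2 scale (of rpmm plus 1) the gap was 0.882 of the range, against a limit of 0.829 for 4 samples. Chance alone flags about 1 in 20 groups. The YMP libraries stood at 28.8 and 17.8 rpmm, and the difference of −2.88 was not called (edgeR adjusted p = 0.173). miR-1895 was also high in 1 library of other regions, at 533 rpmm in visual cortex of PBS mouse 80 and at 689 rpmm in caudate putamen of YMP mouse 81.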

How the results depend on the processing

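The pooled and both interaction counts stayed at 0 in every alternative that was run. The within-region counts of 13 (visual cortex), 11 (corpus callosum) and 2 (choroid plexus), 26 in all, moved often. They were 1, 0 and 0 (3 in all, 2 of them in anterior hippocampus) by total count, 0, 0 and 0 (2 in all, both in caudate putamen) above a mean of 10 CPM, and 0, 0 and 0 (0 in all) by the rule of the study. DESeq2 gave 2 in visual cortex, 0 in choroid plexus and 15 in caudate putamen. Relative log expression gave 22 in corpus callosum and 2 in anterior hippocampus, and no filter gave 5 in choroid plexus and 2 in anterior hippocampus. Without the 6 libraries of few detected miRNAs there were 13 in all, 6 in visual cortex, 4 in corpus callosum and 1 in motor cortex, with 1 YMP library left in corpus callosum and in caudate putamen. limma voom within regions left 1 call, in corpus callosum, and 0 in visual cortex and choroid plexus, and robust shrinkage left 0 in choroid plexus. Without the 2 libraries whose choroid plexus markers went against their labels there were 2 in corpus callosum and 0 in choroid plexus, 15 in all. The causes were not tested.

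With the mouse as a block in 1 limma voom fit, 1 call was left, in corpus callosum, and 0 in visual cortex and choroid plexus. A fit over all regions without the block, by edgeR instead, gave 0 in visual cortex, 8 in caudate putamen, 23 in corpus callosum and 0 in choroid plexus. Test and block changed together there, and the part of each was not tested. The pooled and both interaction counts were the same without the block.

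Leaving out 1 mouse at a time gave 9 (without PBS 80) to 86 (without YMP 81) calls in all, 0 (PBS 76) to 31 (YMP 73) in visual cortex, 0 (YMP 73) to 42 (YMP 81) in corpus callosum, 0 (YMP 73 or PBS 80) to 27 (YMP 81) in choroid plexus, 0 to 11 (YMP 81) in anterior hippocampus, 0 to 24 (YMP 77) in caudate putamen and 0 to 1 (PBS 84) in motor cortex. A group left with 1 library is assumed to vary like the other group.

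Differences of mouse means with leaving out 1 mouse ran from −1.36 (YMP 77) to −0.291 (YMP 73) for miR-155-5p, from −0.560 to 0.135 for miR-146a-5p and from −0.933 to 0.264 for miR-451a, and without the 6 libraries those of miR-146a-5p and miR-451a were 0.0553 and 0.0303. The median of miRNAs that rose with age was −0.81 by total count, and that of those that fell was −0.46 by total count and −0.0065 with slopes from males alone. Of the pooled differences of 97 named, listed or called miRNAs, 19 changed sign without the 6 libraries, 21 by total count and 4 without the 2 libraries that went against their labels. Among the brain aging and red blood cell miRNAs and the 10 of smallest p, those without the 6 were miR-146a-5p (0.0743), miR-144-3p (−0.37), miR-144-5p (−0.0041) and miR-486a-3p (0.0816), that without the 2 was miR-144-3p (−0.0036), and those by total count were miR-451a (−0.0714), miR-144-3p (−0.18), miR-486a-5p (−0.0898) and miR-486b-5p (−0.0852). Leaving out 1 mouse gave −0.66 to 0.0261 for miR-155-5p, −0.45 to 0.12 for miR-146a-5p, −0.69 to 0.82 for miR-451a, −0.40 to 0.57 for miR-144-3p, −0.11 to 0.53 for miR-486a-5p and for miR-486b-5p, −0.29 to 0.0101 for miR-486a-3p and −0.39 to 0.0074 for miR-486b-3p. Within regions it gave −0.73 to 5.43 for miR-135a-1-3p and −0.95 to 4.87 for let-7k in corpus callosum, both lowest without YMP 73, and −3.33 to 0.146 for miR-132-3p in choroid plexus, highest without PBS 72.

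Depth limits rare miRNAs such as miR-5100 and the caudate putamen library of YMP mouse 81. The other 5 libraries with few detected miRNAs had 9.25 to 28.4 mega-reads. In 4 regions there were 2 YMP libraries, which limits each of those comparisons.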

Other observations

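Other miRNAs with small unadjusted p in the pooled fit were higher under YMP. miR-7a-2-3p, from a hairpin of the miR-7 family, had a difference of 0.62, miR-138-2-3p of 0.58, miR-3059-5p of 0.52 and miR-702-3p of 0.46, and none was called by limma. Without the 6 libraries of few detected miRNAs these differences were 0.48, 0.49, 0.45 and 0.56. miR-30d-5p was higher in 7 of 7 regions with a difference of 0.39 (95% interval −0.06 to 0.83), and of 0.28 without the 6 libraries.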
